A study of Mus musculus with 7 samples.

Results

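The genes described here are Plk3, which encodes a Polo-like serine/threonine kinase, and 9 immediate early genes: Fos, Jun, Junb, Egr1, Atf3, Ier2, Ier3, Dusp1 and Myc. They were selected on the transgenic-against-wild-type values of these same 7 arrays. In earlier work on these arrays Plk3 was known to read lower in the transgenic animals. Their genotype values are therefore given as a description and without a test. Each of the 10 genes was found by exact match to the platform's gene symbols, with 1 probe per gene, out of 16468 named genes and 22218 features in all.

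Liver RNA came from 7 littermate mice. The wild-type group held 4 animals, a female and 3 males, and the group with a Zfp90 transgene held 3, a female and 2 males. Every animal's RNA was hybridised against 1 common reference, liver RNA pooled from 4 wild-type males and females, so each value is the log2 ratio of an animal to that pool. Strain, age, time of day, the promoter that drives the transgene and its copy number are not given in the sources used here.

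Immediate early genes are transcribed within minutes of a stimulus, before new protein is made, through signals that reach factors already bound at their promoters. In liver they are known for their rapid and transient induction by growth factors, stress, feeding and partial hepatectomy. Fos, Jun and Junb are subunits of the AP-1 transcription factor, and Atf3 is a related leucine zipper protein induced by stress. Egr1 is a zinc finger activator downstream of MAP kinases, and Myc drives growth and ribosome production. Ier2 and Ier3 are small early response proteins, of which Ier3 modulates cell survival. Dusp1 is the phosphatase that inactivates MAP kinases and so ends the signal. Plk3 was itself first described as a growth factor-inducible kinase and takes part in stress and cell cycle responses.

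Promoter sequence is shown for 3 of the genes: Plk3 and Dusp1, which had the most negative genotype differences among those with a promoter entry, and Fos, whose difference was smaller than its error. Of the 10 genes, 7 were matched by gene number in RefSeq's promoter table (build GRCm38.p6); Egr1, Ier2 and Myc were not. Each run gives the 250 bases before the annotated start, 5′ to 3′ on the gene's strand, at chr4:117133964-117134213 (minus strand) for Plk3, chr17:26508473-26508722 (minus) for Dusp1 and chr12:85473640-85473889 (plus) for Fos. Capitals mark TGACG on either strand, the core of the cyclic AMP response element.
Plk3: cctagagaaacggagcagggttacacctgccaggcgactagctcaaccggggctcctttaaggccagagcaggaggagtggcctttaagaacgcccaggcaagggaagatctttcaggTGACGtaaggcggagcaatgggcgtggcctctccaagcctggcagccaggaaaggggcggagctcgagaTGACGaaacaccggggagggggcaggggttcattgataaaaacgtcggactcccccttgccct
Dusp1: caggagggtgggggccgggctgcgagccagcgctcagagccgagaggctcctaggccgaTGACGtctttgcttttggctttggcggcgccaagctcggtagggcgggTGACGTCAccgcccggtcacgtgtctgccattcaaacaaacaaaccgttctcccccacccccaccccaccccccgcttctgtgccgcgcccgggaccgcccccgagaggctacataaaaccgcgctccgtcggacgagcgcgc
Fos: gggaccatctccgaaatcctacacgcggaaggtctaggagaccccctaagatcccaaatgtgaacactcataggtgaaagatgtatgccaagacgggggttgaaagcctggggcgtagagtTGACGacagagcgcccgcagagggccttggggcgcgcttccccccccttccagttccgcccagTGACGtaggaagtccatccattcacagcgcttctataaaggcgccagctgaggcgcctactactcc

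Plk3 held TGACG at positions -132 and -63 from the start, Fos at -129 and -66, and Dusp1 at -191 and in the full palindrome TGACGTCA at -143, whose 2 strands overlap. In all, 5 of the 7 matched genes held TGACG in this window, Junb and Atf3 being the other two, against 17.8% of 32851 promoters of the same length. TGACGTCA was present in 1 of 7, Dusp1, against 1.55%. GGGCGG, the core of the Sp1 site, was present in 6 of 7 against 32.7%, and CCAAT in 3 of 7 (Jun, Junb and Ier3) against 33.8%. TATAAA was found in Fos alone (12.4% of promoters). The AP-1 pattern TGANTCA (6.75%) and the CArG box (1.47%) were found in 0 of 7. All patterns were searched on both strands. Sites farther from the start, sequences that depart from these patterns and the genes without a promoter entry were not covered, so a 0 does not mean that a gene lacks such sites. The 7 sequences had 54.4 to 68.4% GC, against a median of 52.4% over all promoters. TGACG and GGGCGG both contain CG, and no comparison with promoters of like GC content was made. These matches are descriptions of the sequence, and the sequence was not linked to the expression values by any test.

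The arrays were checked against their labels before the genes were read. Zfp90 itself read 0.34, 0.58 and 0.45 in the transgenic female and the transgenic males, and -0.15, -0.29 and -0.11 in wild-type males 2, 3 and 4. The female array labelled wild type read 0.37, within the transgenic range, and is called by its label throughout. The Y-linked gene Kdm5d read -3.22 and -2.54 on the female arrays and 0.14 to 0.66 on the 5 male arrays, which fixes the sign as animal over pool. Over all probes, 3 pairs of arrays correlated below -0.3, the lowest at -0.497 between wild-type male 4 and the transgenic female; the direction was kept because the dyes are labelled and Kdm5d separated female from male arrays in that direction. How far each probe lay above background is unknown, and precision is limited by having 7 arrays.

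Plk3 was the gene of the 10 whose transgenic and wild-type animals did not overlap. It read -0.74 in the transgenic female and -0.68 and -0.76 in the transgenic males. It read -0.15, -0.03 and 0.02 in the wild-type males and 0.49 on the female array labelled wild type. The 3 transgenic animals thus lay close to each other, and all lay below the lowest animal labelled wild type. The means were -0.73 ± 0.04 (SD, n = 3) and 0.08 ± 0.28 (SD, n = 4), and the model with sex gave a difference of -0.83 ± 0.13 (SE), or 1.78-fold lower. Among the males the difference of means was -0.67 (1.59-fold), and between the females it was -1.23. The wild-type male mean was -0.05 ± 0.09 (SD, n = 3). Leaving out either female reduces the model to the males, and so gives -0.67 in both cases. A difference of larger size was measured in 0.45% of features. Because Plk3 was chosen for this contrast, nothing is read from that share, and these values carry no p here.

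**Figure D1:**
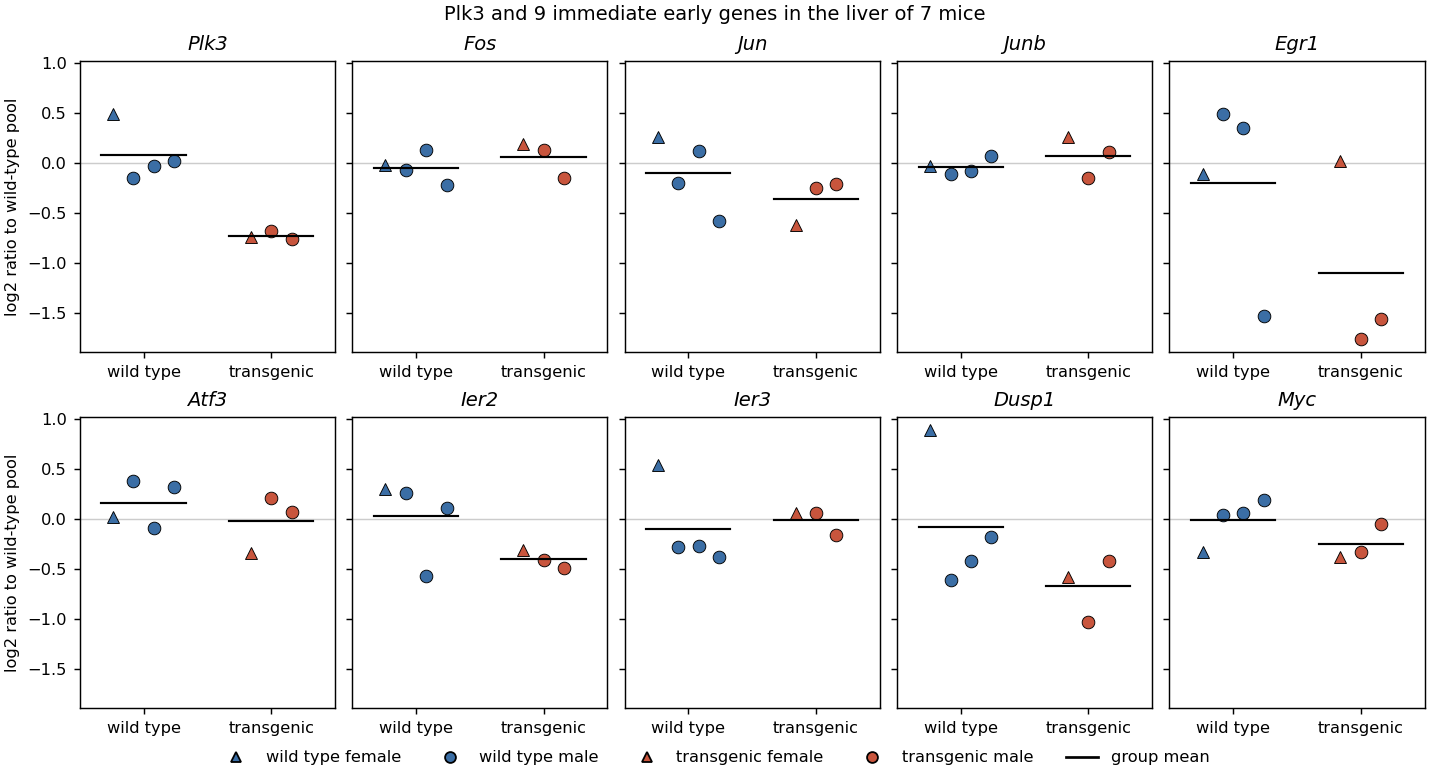
Log2 ratio to the wild-type pool (y axis) of each of the 10 genes in the 4 animals labelled wild type (blue) and the 3 transgenic animals (red); triangles are females, circles males and bars group means. Plk3 is the panel in which the groups separate, with transgenic animals at -0.76 to -0.68; in Egr1, wild-type male 4 (-1.53) lies with the transgenic males.

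Egr1 had the widest spread of the 10. It read 0.49, 0.35 and -1.53 in wild-type males 2, 3 and 4 and -0.11 on the female array labelled wild type. It read 0.02 in the transgenic female and -1.76 and -1.56 in the transgenic males. The lowest and the highest animal were 4.77-fold apart. Both transgenic males were low and the transgenic female was not, and wild-type male 4 was nearly as low as the transgenic males. Among the males alone the groups did not overlap, by the small gap between -1.53 and -1.56. The share of all features whose males separate is not given here, and nothing is read from this separation. The Egr1 means were -1.10 ± 0.98 (SD, n = 3) and -0.20 ± 0.92 (SD, n = 4). The difference of -0.97 ± 0.53 (SE) was about the size of the SD within either group. Left over after genotype and sex was a residual SD of 0.93, which 0.248% of features exceeded, against a median of 0.16 over all features. Within the animals labelled wild type alone, 0.743% of features had a larger SD than Egr1.

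Dusp1 was the next most variable. It read 0.89 on the female array labelled wild type, -0.61, -0.42 and -0.18 in the wild-type males, -0.58 in the transgenic female and -1.03 and -0.42 in the transgenic males. The model difference was -0.66 ± 0.25 (SE), 1.58-fold lower, and it was -0.32 among the males, the value with either female left out. That array was the highest of the 7, and the transgenic and wild-type males overlapped. Ier2 read 0.30 on that array, 0.26, -0.57 and 0.11 in the wild-type males, and -0.31, -0.41 and -0.49 in the transgenic animals. Its difference was -0.45 ± 0.20 (SE), and wild-type male 3 lay below every transgenic animal.

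The AP-1 genes did not share a direction. Fos read -0.02 on the female array labelled wild type, -0.07, 0.13 and -0.22 in the wild-type males, and 0.19, 0.13 and -0.15 in the transgenic female and males. Its difference was 0.09 ± 0.12 (SE), smaller than its error, and its SD over all 7 arrays of 0.15 was below the median feature's 0.17. Jun read 0.26 on the female array labelled wild type, -0.20, 0.12 and -0.58 in the wild-type males and -0.62, -0.25 and -0.21 in the transgenic animals. Its difference of -0.26 ± 0.22 (SE) came down to -0.01 among the males. Junb stayed between -0.15 and 0.26 on all arrays, with a difference of 0.10 ± 0.11 (SE). Atf3, at -0.09 to 0.38 in the animals labelled wild type and -0.34 to 0.21 in the transgenic animals, differed by -0.15 ± 0.14 (SE).

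The remaining genes were Myc and Ier3. Myc read 0.04, 0.06 and 0.19 in the wild-type males, -0.33 and -0.05 in the transgenic males, and -0.33 and -0.38 in the female array labelled wild type and the transgenic female. The transgenic males lay below the wild-type males, while the females lay side by side, and the model difference was -0.22 ± 0.11 (SE). Ier3 read 0.54 on the female array labelled wild type and -0.28, -0.27 and -0.38 in the wild-type males. It read 0.06 in the transgenic female and 0.06 and -0.16 in the transgenic males, a model difference of 0.04 ± 0.16 (SE). Its transgenic males lay above all wild-type males and its transgenic female lay below the female array labelled wild type. For Myc and Ier3, as for Egr1, the share of all features whose males separate is not given here. Nothing is read from these separations.

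Over the 10 genes, 7 had a negative and 3 a positive genotype difference, with a median of -0.24, where the median of all features was -0.01 and 51.8% of them were negative. Transgenic animals lay below all animals labelled wild type in 1 gene, Plk3 (2.84% of all features did so), and above them in 0 (3.17% of features). No feature was called for genotype by limma at an adjusted p of 0.05 (0%), with 1536 at an unadjusted p under 0.05. Since the genes were chosen on this contrast, nothing is read from these shares. The female array labelled wild type was the highest of the 7 in 5 of the 10 genes and the lowest in 0, and the median of the 10 genes there was 0.14, with the wild-type males at -0.09 to -0.06. For the transgenic female and males that median was -0.33, -0.29 and -0.18.

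**Figure D2:**
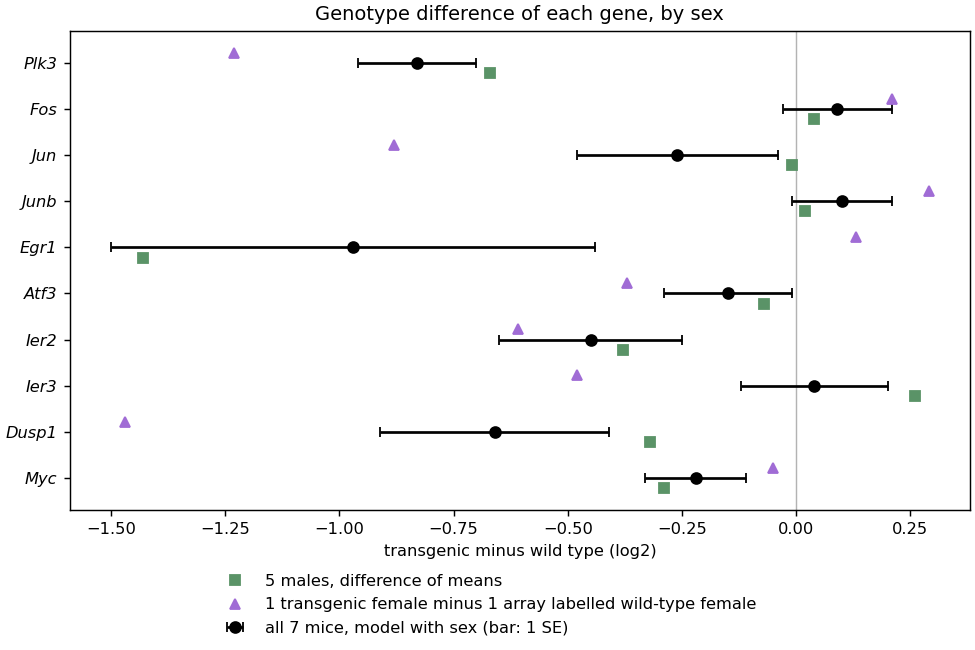
Transgenic minus wild-type difference on the log2 scale (x axis) of each gene: black circles are the model over all 7 mice with 1 SE, green squares the difference of means among the 5 males, purple triangles the difference between the females. In Plk3 all 3 values lie between -1.23 and -0.67, whereas in Egr1 the males give -1.43 and the females 0.13.

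The rule that chose the genes did not use the comparison of females with males, so that comparison was tested. The same 7 arrays enter both contrasts, so the test is not fully separate from the choice. Of the 10 genes, 8 had a positive and 2 a negative difference of females minus males (median 0.20), against 52.3% positive and a median of 0.01 over all features. Limma called 0 of the 10 after Benjamini-Hochberg adjustment over 22218 features, of which 78 were called (0.351%). At an unadjusted p under 0.05 there were 3 of the 10, and 2050 of all features. Ier3 averaged 0.30 in the females and -0.20 in the males, a difference of 0.50 ± 0.17 (SE; limma, adjusted p = 0.415). Dusp1 averaged 0.16 and -0.53, a difference of 0.75 ± 0.28 (SE; limma, adjusted p = 0.463). Myc averaged -0.36 and -0.02, a difference of -0.32 ± 0.12 (SE; limma, adjusted p = 0.471). In Egr1 the difference was larger, 0.86 ± 0.58 (SE), but so was its error. For Plk3 it was 0.28 ± 0.14 (SE; limma, adjusted p = 0.633).

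Each sex difference rests on 2 females. Without the female array labelled wild type, Ier3 came down to 0.11, Dusp1 to 0.15 and Plk3 to -0.01, and Egr1 went up to 1.69. Without the transgenic female, the same genes gave 0.84, 1.29, 0.54 and 0.12. The size of the difference in these 4 genes thus depended on which female was used.

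**Figure D3:**
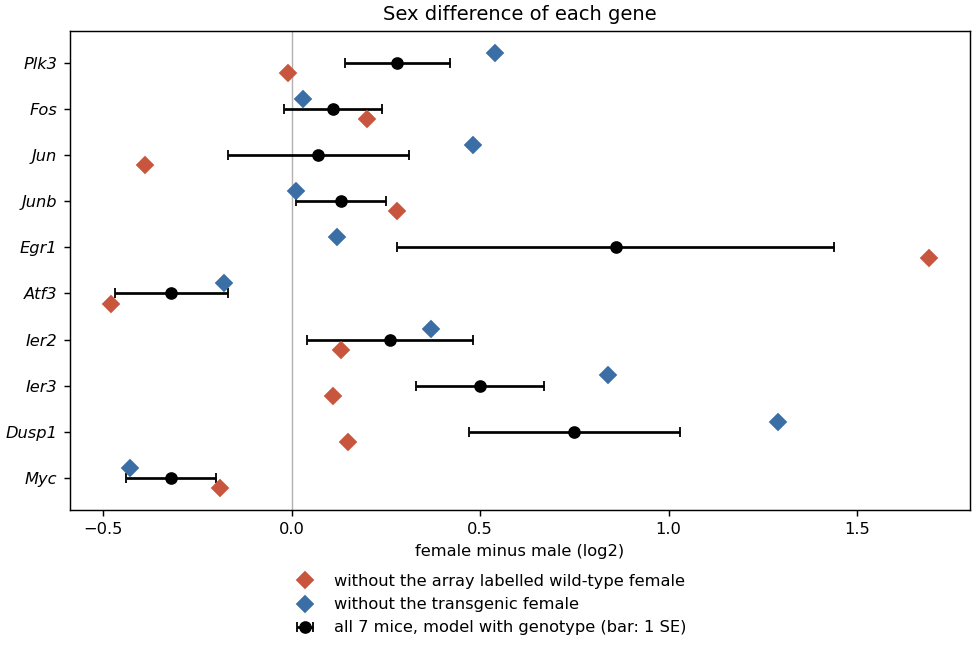
Female minus male difference on the log2 scale (x axis) of each gene: black circles with 1 SE use all 7 mice, red diamonds leave out the female array labelled wild type and blue diamonds the transgenic female. Myc is negative in all 3, while for Dusp1 the value runs from 0.15 to 1.29 and for Egr1 from 0.12 to 1.69 with the female used.

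How far the genotype difference itself differed between the sexes was fitted as an interaction, with 1 female per genotype, so that its spread came from the males. The genotype values that the genes were chosen on enter this term. It is therefore a description of the 10 genes and is given for them without a p. Over all features limma called 16 (0.072%). The interaction was -0.56 ± 0.20 (SE) for Plk3, -0.74 ± 0.21 (SE) for Ier3 and -1.14 ± 0.39 (SE) for Dusp1. For Egr1 it was 1.57 ± 1.08 (SE). Without wild-type male 4, the wild-type male with low Egr1, it was 2.22 ± 0.24 (SE). That fit has 2 males per genotype, and its smaller error rests on leaving out the animal that read differently.

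Correlations between the 10 genes had both signs. Of their 45 pairs, 26 had a positive and 19 a negative Pearson r over the 7 animals, with a median of 0.09. Because these 7 arrays also carry the contrast that the genes were chosen on, the correlations are descriptions and are given without a p. The highest r was 0.79 for Plk3 and Dusp1 (Spearman's rho 0.54, n = 7), with 0.74 after leaving out the 2 animals farthest from the median of Plk3. The lowest was -0.84 for Ier3 and Myc (rho -0.86, n = 7), and -0.99 without the 2 farthest. Both pairs kept their sign in the residuals of the genotype and sex model, at 0.76 and -0.80. Fos and Jun, the partners of AP-1, had an r of 0.10, and Jun and Junb of -0.61. All arrays share the reference pool, and the animals fall into 2 genotypes with too few in each for an r of their own.

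**Figure D4:**
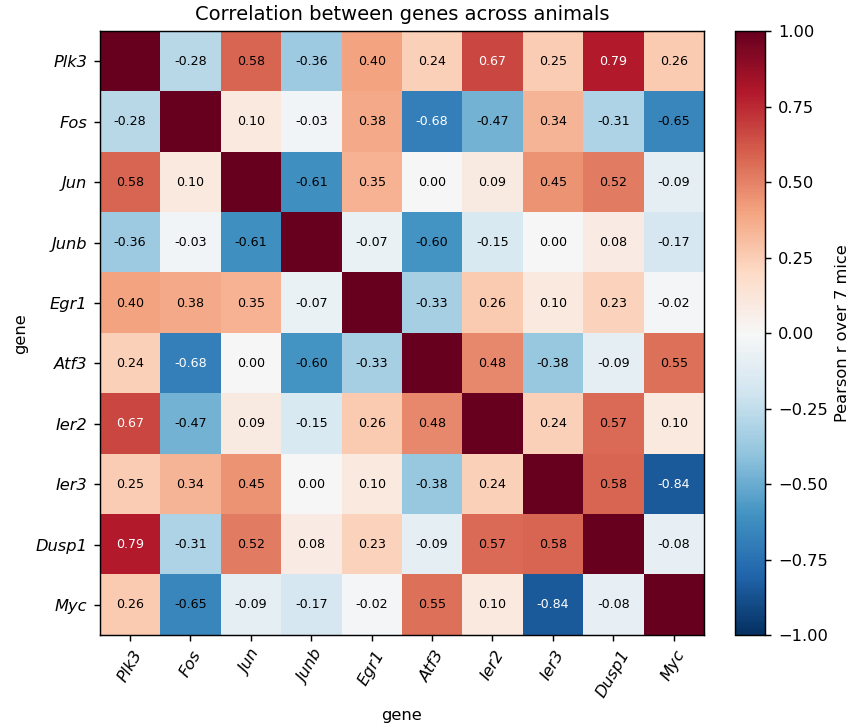
Pearson r between each pair of the 10 genes over the 7 mice; red is positive, blue negative, and the number in each cell is r. Plk3 with Dusp1 (0.79) and Ier3 with Myc (-0.84) are the extremes, and Fos is positive with 3 of the other 9 genes.

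The genes most like Plk3, Fos and Myc were looked up among 3943 named genes with an SD of at least 0.25 over the 7 arrays. Closest to Plk3 were Hsdl2 (r = 0.944), Thoc3 (0.923), Hadha (0.920), Zbed4 (0.919) and Mmp1b (0.919); 0.355% of the genes had an r over 0.9. Hadha, which encodes a mitochondrial enzyme of fatty acid oxidation, read -0.57 to -0.25 in the transgenic and -0.14 to 0.31 in the animals labelled wild type. Closest to Fos were the homeobox gene Hoxa9 (0.989), Msmp (0.974), Zfp764 (0.974), another homeobox gene, Hoxd11 (0.969), and Tmem86b (0.967), and 2.36% of the genes exceeded 0.9. Hoxd11 read -0.62 in wild-type male 4 and 0.49 in wild-type male 3, where Fos read -0.22 and 0.13. Closest to Myc were Atf7 (0.990), Fbxw13 (0.963), Bet1 (0.962), Gtf2ird1 (0.958) and Hecw2 (0.955), with 1.78% over 0.9. For Egr1, added after its values were seen, Ctif (0.959) led, at -0.54 in wild-type male 4 and -0.47 and -0.62 in the transgenic males, and 0.0507% exceeded 0.9. These are descriptions over 7 arrays. Part of the likeness to Plk3 follows from the genotype contrast it was chosen on.

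Other early response genes were read from lists. The 69 measured genes of 4 lists had a median genotype difference of -0.07, with 45 negative and 24 positive, and 0 were called. Those lists were other AP-1 subunits (5 of 12 negative, median 0.03), other immediate early transcription factors (12 of 20, -0.07), other feedback inhibitors (16 of 23, -0.05) and early secreted and cytoskeletal genes (12 of 14, -0.07). Transgenic animals lay below all others in 3 of the 69, Egr4, Socs3 and Trib1 (named after their values were seen), and above in 0, where 2.84% and 3.17% of all features did so. The count is near that background and is no result about these genes. Trib1, a pseudokinase, read -0.23 to -0.16 in the transgenic animals and -0.07 to 0.12 in the others, a difference of -0.24 ± 0.09 (SE). Socs2, a feedback inhibitor of growth hormone signalling, had a difference of -0.94 ± 0.32 (SE), with the female array labelled wild type at 0.76 and the wild-type males at -0.37 to -0.23. Transgenic male 1, at -0.29, lay among them. Id3, an inhibitor of helix-loop-helix factors, differed by -0.75 ± 0.42 (SE), Ccn2, a matrix-associated growth regulator, by 0.46 ± 0.42, and Atf7 by -0.48 ± 0.17.

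Upstream and related pathways were near 0 as lists, and 0 of their genes were called for genotype. Of 26 genes of the MAP kinase cascade 18 were negative (median -0.06). Transgenic animals lay below all others in 2 of the 26 and above in 2, where 2.84% and 3.17% of all features did so. The lists were chosen with earlier results known, and nothing is read from such counts. Among the higher was Mrtfa, a coactivator of serum response factor, at 0.27 to 0.42 in the transgenic and -0.20 to 0.02 in the other animals. Of the other Polo-like kinases 3 were measured. Plk2, a stress-induced relative of Plk3, differed by -0.60 ± 0.23 (SE), with overlap: it read -0.64, -0.56 and -0.23 in transgenic animals and -0.40 in wild-type male 3. Plk1, the mitotic kinase, and Plk5 differed by 0.07 ± 0.12 (SE) and 0.20 ± 0.12 (SE). Among 12 Myc network partners 7 were negative (median -0.01). The Myc antagonist Mxi1 read -0.24 to -0.22 in the transgenic animals against -0.05 to 0.10 in the others, the 1 partner of 12 without overlap. Mycn differed by 0.24 ± 0.12 (SE). Of 16 Myc target genes 10 were negative (median -0.04). However, the nucleolar Nolc1, the 1 of 16 without overlap, was at 0.44 to 0.57 in the transgenic animals and -0.19 to 0.16 in the others.

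Of 15 p53 target genes 9 were negative (median -0.03). Of 13 integrated stress response genes 10 were negative (median -0.10). Their central factor Atf4 read -0.46 to -0.30 in the transgenic and -0.22 to 0.21 in the other animals, a difference of -0.39 ± 0.10 (SE). Atf4 was the 1 gene of the 13 without overlap, where 2.84% of all features had the transgenic animals below all others. Of 14 glucocorticoid-induced genes 9 were negative (median -0.05), with Pck1, the gluconeogenic enzyme, at -0.69 ± 0.23 (SE) and the metallothionein Mt2 at 0.82 ± 0.37 (SE).

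Between the sexes, 56 of the 69 other early genes were higher in females (median 0.15), and 47 of 69 (median 0.09) without the female array labelled wild type. Limma called 0 of them. The largest difference in these lists, in Igfbp1, an early induced and insulin-suppressed secreted protein, was 2.05 (limma, adjusted p = 0.173). In the other pathway lists 1 of the 26 MAP kinase cascade genes and 1 of the 13 integrated stress response genes were called for sex, where 0.351% of all features were. Egfr, a growth factor receptor, was lower in females (-2.14 and -2.21, against -0.44 to 0.94 in males; difference -2.22, limma, adjusted p = 0.0247). Vldlr was higher in females (0.80 and 0.60, against -0.72 to -0.32; difference 1.19, limma, adjusted p = 0.0132).

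**Figure D5:**
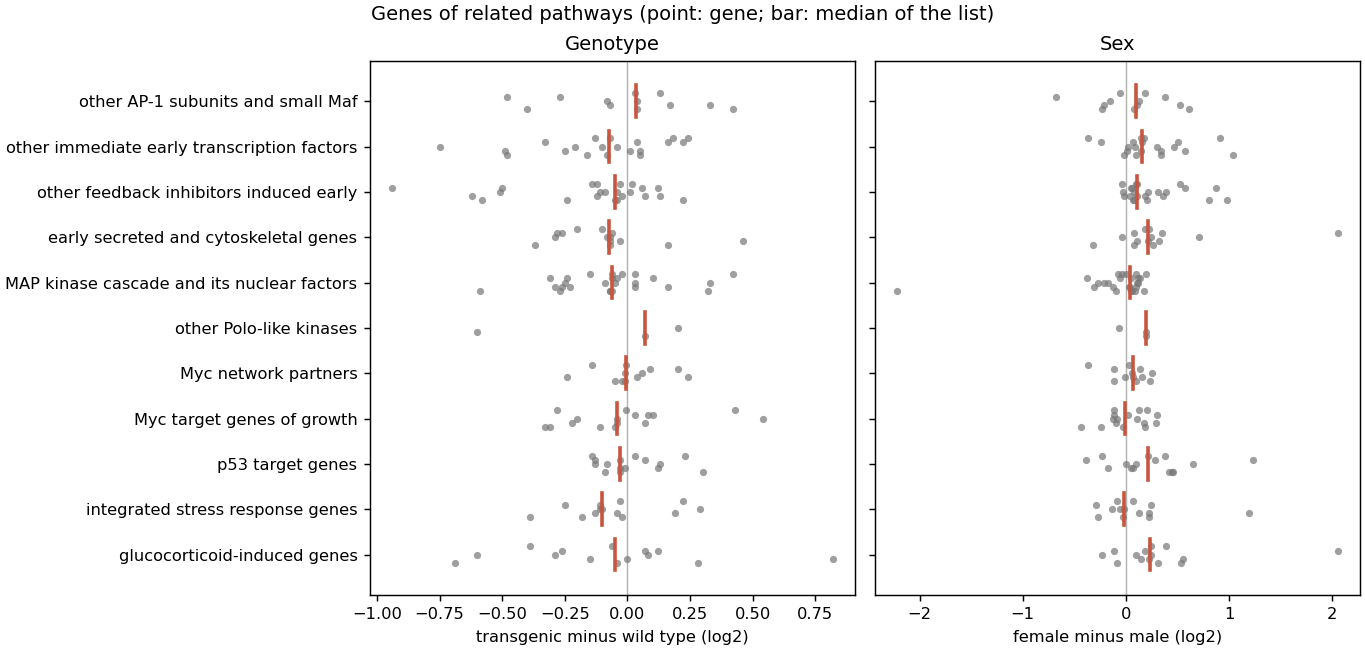
Differences on the log2 scale of the genes of 11 related lists, transgenic minus wild type (left) and female minus male (right); each point is a gene and the red bar is the list's median. Medians run from -0.10 to 0.07 for genotype, and the 4 early gene lists have sex medians of 0.09 to 0.22, with the glucocorticoid-induced (0.23) and p53 target (0.21) lists as high.

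Among markers of other liver cells, those of macrophages varied most between the arrays. Of 12 measured macrophage and Kupffer cell markers, 10 had a positive genotype difference (median 0.37) and 12 a positive sex difference (median 0.71), and limma called 0 for either. The genotype median was 0.71 with either female left out and 0.21 without transgenic male 1. The sex median was 0.15 without the female array labelled wild type (10 of 12 positive) and 1.28 without the transgenic female. Their median level was 0.79 on the female array labelled wild type, -0.65 to -0.12 among wild-type males, 0.41 for the transgenic female and 0.36 and 0.16 for the transgenic males. The scavenger receptor Marco read 1.29 on that array and -1.84 to -1.31 in the wild-type males, and Cd163 read 0.79 to 1.34 in the transgenic and -0.49 to 0.16 in the other animals. Cd163 was the 1 marker of the 12 whose groups did not overlap. Of all features, 3.17% had the transgenic animals above all others and 2.84% below. The median of the 12 was highest on the female array labelled wild type, on which 5 of the 10 genes (Plk3, Jun, Ier2, Ier3 and Dusp1) were also highest. On the transgenic arrays that median was 0.16 to 0.41, above the wild-type males, while Plk3 read -0.76 to -0.68, below them. The 11 hepatocyte markers had a median genotype difference of 0.02, but they were not uniform. Transgenic animals lay above all others in 2 of them, Cps1 and Ass1, and below in 2, Apob and Cyp2e1 (named after their values were seen). They also lay above all others in 2 stellate cell and 2 exocrine pancreas markers. Median genotype differences were 0.01 for neutrophil markers, 0.02 for lymphocyte, 0.01 for endothelial and 0.06 for stellate cell markers. They were 0.13 for bile duct, 0.22 for red blood cell and 0.10 for exocrine pancreas markers. In bulk liver RNA, fewer cells of a type and less RNA per cell cannot be told apart, and the part of these markers in the values above was not tested.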

How the data were processed

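The values are the authors' deposited log10 ratios, 1 per probe and animal, from 2-colour arrays with the pool in Cy3 and the animal in Cy5, per the labels. Dye swaps were used, per the series' design text. How they were combined into each ratio, the background correction, the normalization, the centring and the platform's genome build are not given in the sources used here. Column medians ran from -0.0042 to 0.0093, and 0 values were missing. They were put on the log2 scale by a factor of 3.32. Of 23574 probes, 17824 had 1 gene symbol in GEO's platform annotation, 50 had several and 5700 had none. Probes of a gene were averaged (1150 genes had more than 1), and the rest were kept singly, giving 22218 features with no filter on level.

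Genotype and sex were fitted over all 7 arrays with limma 3.58.1 (R 4.3.3; lmFit, eBayes), the interaction in its own model, with Benjamini-Hochberg adjustment over all features and calls at 0.05. The code was tested on simulated data. Correlations between genes are given as descriptions. Promoters came from RefSeq (GRCm38.p6). The genes and the 20 lists were chosen with earlier results of these data known. Named by rule were the 10 genes, the 5 nearest genes of Plk3, Fos and Myc by r, and list genes by rank. Egr1's neighbours and Egr4, Socs3, Trib1, Apob and Cyp2e1 were named after their values were seen. Alternatives were quantile normalization, a robust trended fit, median-centring, single probes, named genes alone, a model without sex or without genotype, males alone and each animal left out. P-values reflect the spread between these 7 samples.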

Additional observations from a re-analysis of the deposited data

Results flagged for a closer look

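The values of the 10 genes and of 23 other genes named from the lists were examined for a sample far from the other wild-type animals, by Dixon's ratio of gap to range against its critical value for 4 samples, and for genotype differences of opposite sign in the sexes. A sample stood apart in 6 genes. Chance flags about 5% of groups, but that rate does not apply here: the wild-type group holds 1 female and 3 males. Vldlr was named for its sex difference, Socs2 and Mt2 for their genotype difference, and Atf7 and Marco for both. The female array labelled wild type stood apart in 5 of the 6 genes: Ier3 (0.876), Atf7 (0.897), Socs2 (0.876), Vldlr (0.848) and Marco (0.831). In Ier3 it read 0.54 against -0.38 to -0.27 in the wild-type males. Wild-type male 3 stood apart in Mt2 (0.903).

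The genotype difference was flagged as running in opposite directions in females and males for 6 genes. The flag does not cover every change of sign: Igfbp1, whose difference among the males was small, was not flagged. Each interaction rests on 1 female per genotype and is a description. Batf3, Ccn2, Pmaip1 and Marco were named for their genotype difference, Marco also for its sex difference. Egr1 differed by 0.13 between the females and -1.43 among the males (interaction 1.57). Ier3 differed by -0.48 and 0.26 (interaction -0.74). Batf3, a partner of Jun, differed by -0.48 and 0.79 (interaction -1.26). Ccn2 differed by -1.03 and 1.08 (interaction -2.12). Pmaip1, a p53 target of cell death, differed by -0.62 and 0.68 (interaction -1.31). Marco differed by -0.13 and 1.65 (interaction -1.78).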

How the results depend on the processing

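The genotype difference of Plk3 ran from -0.92 to -0.67 with single animals left out. Its sign could not change, because every transgenic animal lay below every animal labelled wild type. Ier3, near 0, ran from -0.10 to 0.26. Features called for genotype went from 0 to 7 among the males alone and to 0 to 7 with single animals left out, 7 without either female. Features called for sex went from 78 to 49 with quantile normalization and 41 with a robust, trended variance. With single animals left out they ran from 36 (without the female array labelled wild type) to 254 (without the transgenic female). Interaction calls went from 16 to 6 with quantile normalization and 4 (without wild-type male 2) to 77 (without wild-type male 4). The Egr1 interaction ran from 1.21 to 2.22, the largest being without wild-type male 4. With single animals left out, female minus male ran from -0.01 to 0.54 for Plk3 and from -0.39 to 0.48 for Jun, negative for Jun also without wild-type male 4 (-0.04), and the Ier2 interaction from -0.40 to 0.02. The cause of these changes was not tested. For the 10 genes, 7 to 8 genotype differences were negative, 6 to 8 sex differences positive and 23 to 29 pairs positive in r with single animals left out. No paired analysis was made because the sample titles give no pairing of animals between the genotypes. With 1 female per genotype, differences between the females have no replicate.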
